A study of Mus musculus with 6 samples.

Results

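The genes described here encode the heterogeneous nuclear ribonucleoproteins (hnRNPs) and related RNA-binding proteins, a set of 33 genes named by symbol and taken from 54532 gene rows of the deposited table. They comprise 20 genes with an Hnrnp symbol and 13 of the neighbouring PTB, PCBP and FET families and their relatives. All 33 symbols matched exactly 1 Ensembl row, and all 33 passed the filter on low values. The values come from RNA sequencing of mouse CD4 T cells in 6 libraries. The 3 KO libraries (KO 1, KO 4 and KO 5) carry the genotype label iCD4-PRMT5 delta/delta, and the 3 WT libraries (WT 1, WT 2 and WT 4) the label iCD4-PRMT5fl/fl, so that the WT animals also carry floxed alleles. Both groups are on the C57BL/6 background and share a treatment label of anti-CD3/CD28 for 48 h, whereas every title carries the word rest. The sources used here do not give the Cre driver, the age of the animals or any pooling. A library code in the descriptions divides the libraries into code 24 (KO 4, KO 5 and WT 4) and code 22 (KO 1, WT 1 and WT 2).

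hnRNPs bind nascent and mature transcripts and take part in splice site choice, 3' end formation, export, stability and translation of messenger RNA. PRMT5 is an enzyme that symmetrically dimethylates arginines of proteins, and the series title places RNA processing proteins among its substrates in T cells. Many hnRNPs carry arginine-glycine repeats that are methylated by PRMT5 or by other arginine methyltransferases. The comparison made here is of the amounts of the transcripts that encode them, not of the methylation of the proteins or of splicing.

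The table gives robust FPM, that is, the number of fragments assigned to a gene after scaling by robust size factors, rounded to 1 decimal. Sequencing depth is unknown, so that no counting error can be attached to a value. Column sums lay between 867137 and 961245 FPM. Prmt5 measured 24.4, 23.8 and 21.5 FPM in KO 1, KO 4 and KO 5, against 34.9, 41.0 and 43.9 FPM in WT 1, WT 2 and WT 4. Each KO library was below each WT library, at a log2 change of -0.78 that was not called among all genes (limma adjusted p = 1). The value covers the whole gene, and the sources used do not say which part was deleted. Wdr77, the partner of PRMT5, had a log2 change of -0.06, and Prmt1, a methyltransferase of many hnRNPs, had 0.09. The 6 markers of CD4 T cells summed to 1701 to 2046 FPM in KO libraries and 1559 to 1991 FPM in WT libraries, with Cd4 at 388.8 to 465.0 FPM. The 6 activation markers summed to 599.9, 344.3 and 451.5 FPM in KO 1, KO 4 and KO 5, against 530.2, 597.1 and 449.6 FPM in WT 1, WT 2 and WT 4. Over all libraries Il2ra measured 42.0 to 63.5 FPM, Il2 0.7 to 1.1 FPM and Cd69 193.2 to 369.4 FPM. Mki67, a marker of cycling cells, was at 56.4 FPM in KO 4 and at 104.2 to 120.1 FPM in the other libraries. The 8 myeloid markers were all detected, and summed to 446.9 to 1108 FPM in KO libraries and 171.3 to 701.2 FPM in WT libraries. All 8 had positive log2 changes, KO minus WT (median 0.47 beside 0.01 for all genes, none called). Their part in the genotype values of the group was not tested. The 6 B cell markers summed to 14.5 to 20.5 FPM in KO libraries and 14.5 to 25.2 FPM in WT libraries, Cd8a lay between 0.2 and 2.1 FPM, and 4 of 5 erythroid markers were listed at 0 in all 6 libraries. The neuronal genes Elavl2, Elavl3, Elavl4 and Ralyl, picked out after their values were seen, were each highest in WT 1, at 1.1 to 2.2 FPM against 0.1 to 0.8 FPM in the other libraries. This was not confined to neuronal genes, since the B cell markers Pax5 (4.8 FPM) and Ms4a1 (4.3 FPM) were highest in WT 1 too. Other low genes were not, such as Itgam, highest in KO 5 at 5.5 FPM, and Alas2, highest in WT 2 at 1.9 FPM.

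The 33 genes were abundant. Their means over the 6 libraries ranged from 36.4 FPM for Hnrnph3 to 936.4 FPM for Hnrnpu, with a median of 194.4 FPM. Together they took 0.979%, 0.908% and 0.950% of the FPM of all genes in KO 1, KO 4 and KO 5, and 0.835%, 0.945% and 0.971% in WT 1, WT 2 and WT 4. The shares of both genotypes overlapped. In bulk samples, fewer cells of a type and less RNA per cell cannot be told apart. The coefficient of variation of a gene over the 6 libraries lay between 3.79% for Hnrnph2 and 19.0% for Hnrnpa2b1, with a median of 9.06%. The median over all 14944 genes tested was 14.7%, and over the 4755 genes at least as abundant as Hnrnph3 it was 9.84%.

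Levels of different genes were compared per kb of annotated exon, a length that counts every annotated exon and so understates genes with long alternative exons. On this scale Hnrnpa2b1, Hnrnpf, Hnrnpa1, Hnrnpk and Hnrnpab stood highest, with mean levels of 122, 116, 96.7, 96.1 and 86.3 FPM per kb. Hnrnpr, Hnrnpll and Elavl1 stood lowest, with levels of 6.95, 8.15 and 8.66 FPM per kb. The level of the highest was 17.5 times that of the lowest. Hnrnpr has the longest annotated exon length of the group, 22199 bases, and its place rests on that length. Before division by length it averaged 154.4 FPM, beside the group's median of 194.4 FPM. The median level was 28.9 FPM per kb. The ranges over the libraries overlapped for 31 of the 32 pairs of neighbours in this order. The exception was Ptbp3, whose libraries lay at 70.5 to 79.7 FPM per kb, above those of Ewsr1 at 56.0 to 68.1 FPM per kb.

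**Figure D1:**
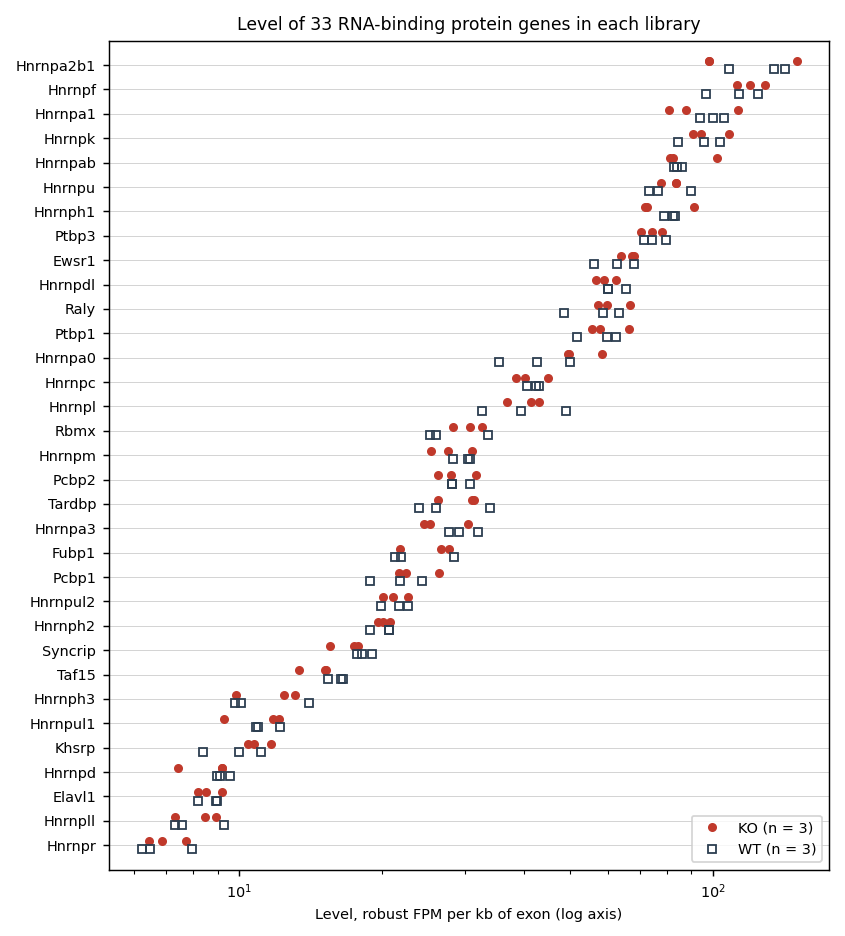
Level of each of the 33 genes in robust FPM per kb of exon (log axis), with filled circles for the 3 KO libraries and open squares for the 3 WT libraries. Genes are ordered by their mean, from Hnrnpa2b1 at 122 to Hnrnpr at 6.95 FPM per kb, and the KO and WT points overlap for every gene but Taf15.

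Between genotypes, no transcript of the group passed the test. Of the 33 genes 0 were called higher and 0 lower in KO (limma with library code as a term, smallest adjusted p = 1), where 0% of the 14944 genes tested were called. At an unadjusted p under 0.05 there were 0 of 33, beside 0.248% of all genes. The log2 changes ran from -0.14 for Taf15 to 0.29 for Hnrnpa0, with a median of -0.01 beside 0.01 for all genes, and 26 of 33 were smaller than 0.1 in either direction. Positive changes were found in 12 of 33 genes and in 54.4% of all genes. This division rests on the scaling, since 23 of 33 were positive when libraries were scaled to their total and 1 of 33 when scaled to the ERCC spike-ins, where the median of all genes moved to -0.20.

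The precision of these changes can be read from their intervals. Standard errors lay between 0.101 and 0.158 on the log2 scale. Under the deposited scaling, the 95% interval lay inside a 1.5-fold difference in either direction for 32 of 33 genes. It lay inside a 2-fold difference for all 33. Over all genes tested these shares were 60.1% and 85.1%, and the 1.5-fold share was 93.7% over the genes at least as abundant as Hnrnph3. The exception was Hnrnpa0, with an interval of -0.08 to 0.65. Intervals under ERCC scaling are not given here. With that scaling Syncrip, for example, had a log2 change of -0.33 (limma, unadjusted p = 0.526). Under the deposited scaling it had -0.11 (limma, unadjusted p = 0.348). A larger change with a larger p means a wider interval, so these counts hold for the deposited scaling only.

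**Figure D2:**
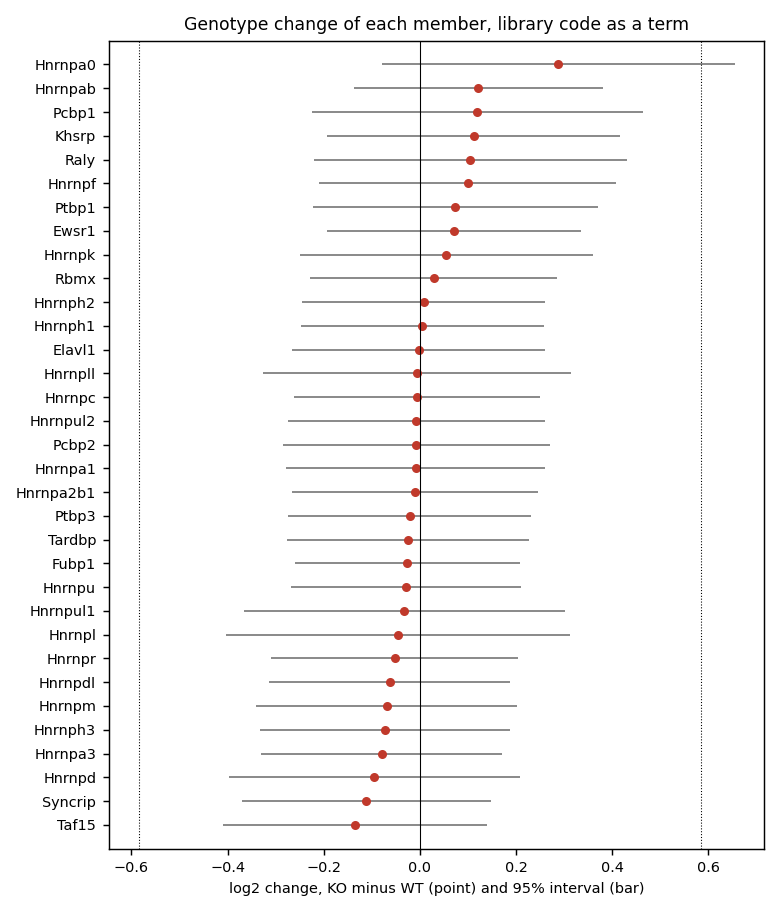
log2 change, KO minus WT, of each gene (points) with its 95% interval (bars), from the limma fit to 6 libraries with library code as a term. Dotted lines mark a 1.5-fold difference in each direction. The intervals of all 33 genes include 0, and that of Hnrnpa0 alone crosses a dotted line, on the positive side.

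The A/B hnRNPs bind single-stranded RNA through paired RNA recognition motifs and are classical antagonists of SR proteins in splice site choice. Hnrnpa0 measured 156.1, 132.4 and 132.8 FPM in KO 1, KO 4 and KO 5, against 94.5, 114.1 and 133.6 FPM in WT 1, WT 2 and WT 4. The ranges overlapped only because WT 4 stood above KO 4 and KO 5. The change of 0.29 (SE 0.158) did not pass (limma adjusted p = 1), and with a library left out it ran from -0.01 (without KO 1) to 0.59 (without WT 4, limma adjusted p = 0.650), with 0.19 without WT 1. Hnrnpa1, a splicing repressor that shuttles to the cytoplasm, measured 356.3, 254.6 and 276.2 FPM in KO libraries and 314.8, 332.5 and 295.8 FPM in WT libraries, a log2 change of -0.01. Its relative Hnrnpa2b1, which also binds microRNA precursors and sorts RNAs, measured 989.1, 645.8 and 645.6 FPM in KO libraries and 932.8, 886.5 and 712.2 FPM in WT libraries, a log2 change of -0.01. In both genes KO 1 was the highest library and KO 4 and KO 5 were the lowest. Hnrnpa3 measured 164.2, 132.7 and 136.4 FPM in KO libraries and 172.2, 157.3 and 149.9 FPM in WT libraries, with a change of -0.08. Hnrnpab, an RNA- and DNA-binding protein, measured 283.6, 229.1 and 225.4 FPM in KO libraries and 239.1, 233.6 and 230.3 FPM in WT libraries, with a change of 0.12. KO 1 stood above the other libraries, which spanned 225.4 to 239.1 FPM, and without it the change was -0.02.

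Hnrnpd, also called AUF1, binds AU-rich elements of short-lived messenger RNAs such as those of cytokines. It measured 67.5, 54.6 and 67.6 FPM in KO libraries and 66.1, 67.1 and 70.3 FPM in WT libraries, a log2 change of -0.09. KO 4 alone was low, and without it the change was -0.01. Its relative Hnrnpdl, at 285.7 ± 14.0 FPM in KO and 298.0 ± 15.2 FPM in WT (SD, n = 3), had a change of -0.06. Hnrnpdl stood at 60.6 FPM per kb and Hnrnpd at 8.91. Elavl1, which stabilises AU-rich messenger RNAs, measured 95.3, 84.7 and 88.0 FPM in KO libraries and 84.7, 92.7 and 93.2 FPM in WT libraries. Khsrp, which promotes their decay, measured 46.5, 45.1 and 50.3 FPM in KO libraries and 36.2, 43.1 and 47.9 FPM in WT libraries. The 2 genes had changes of -0.003 and 0.11, and WT 1 held the lowest Khsrp value.

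The poly(C)-binding proteins, hnRNP K and its relatives, share KH domains. Hnrnpk measured 700.4, 611.1 and 585.7 FPM in KO libraries and 545.6, 618.8 and 668.4 FPM in WT libraries, a log2 change of 0.05 with ranges that overlapped. Pcbp1, an intronless gene of this family, measured 48.3, 41.2 and 39.8 FPM in KO libraries and 34.5, 39.9 and 44.6 FPM in WT libraries, a change of 0.12. Pcbp2 was at 148.8 ± 14.2 FPM in KO and 150.9 ± 7.94 FPM in WT (SD, n = 3), a change of -0.01. Per kb, the level of Pcbp2 was 1.27 times that of Pcbp1.

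The H/F proteins bind runs of guanines. Hnrnpf measured 392.4, 364.5 and 342.5 FPM in KO libraries and 294.1, 346.2 and 378.6 FPM in WT libraries, a log2 change of 0.10. Hnrnph1 measured 532.5, 420.9 and 424.2 FPM in KO libraries and 486.1, 481.9 and 461.6 FPM in WT libraries, a change of 0.01. The WT values of Hnrnph1 all lay between KO 1 and the other KO libraries. Hnrnph2, the X-linked copy, varied least of all members, at 88.1 ± 2.61 FPM in KO and 87.7 ± 4.56 FPM in WT (SD, n = 3). Hnrnph3 measured 31.0, 39.2 and 41.4 FPM in KO libraries and 30.8, 31.8 and 44.2 FPM in WT libraries, a change of -0.07, and in both genotypes its values divided by library code. Per kb, the level of Hnrnph1 was 3.98 times that of Hnrnph2.

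Hnrnpc, which packages nascent RNA by binding uridine runs, was at 177.7 ± 14.2 FPM in KO and 181.0 ± 5.33 FPM in WT (SD, n = 3). Its relative Raly measured 220.1, 196.4 and 188.7 FPM in KO libraries and 159.9, 193.2 and 208.3 FPM in WT libraries, a log2 change of 0.11 with overlapping ranges. Hnrnpl and Hnrnpll bind CA-rich RNA, and in T cells Hnrnpll directs the exon skipping that yields the short CD45 isoform. Hnrnpl was at 240.2 ± 19.2 FPM in KO and 239.5 ± 49.0 FPM in WT (SD, n = 3), a change of -0.05. Hnrnpll measured 99.1, 85.5 and 104.1 FPM in KO libraries and 85.4, 88.5 and 108.4 FPM in WT libraries, a change of -0.01. Within a library, the Hnrnpl value was 2.46 to 2.56 times that of Hnrnpll in KO and 2.27 to 2.69 times in WT, ratios that do not depend on scaling and overlapped. Ptbp1, a repressor of exons flanked by pyrimidine tracts, was at 283.8 ± 27.3 FPM in KO and 274.7 ± 26.4 FPM in WT (SD, n = 3), and Ptbp3, its relative in blood cells, at 555.5 ± 28.0 FPM in KO and 562.5 ± 31.2 FPM in WT (SD, n = 3). Their changes were 0.07 and -0.02, and per kb the level of Ptbp1 was 0.788 times that of Ptbp3.

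Taf15 was the one gene of the 33 whose KO and WT values did not overlap, beside 2.88% of all genes tested, and 1.79% with KO lower. Taf15 belongs with Ewsr1 to the FET proteins, which bind RNA and couple transcription to splicing. It measured 44.3, 39.0 and 44.4 FPM in KO 1, KO 4 and KO 5, against 48.4, 44.9 and 47.8 FPM in WT 1, WT 2 and WT 4. The nearest values of both genotypes were 44.4 FPM in KO 5 and 44.9 FPM in WT 2. Its change of -0.14 on the log2 scale (SE 0.118, 95% interval -0.41 to 0.14) did not pass (limma adjusted p = 1). It was -0.20 within code 24 and -0.07 within code 22. Ewsr1 measured 392.7 ± 13.6 FPM in KO and 367.7 ± 35.4 FPM in WT (SD, n = 3), a change of 0.07. The ratio of Ewsr1 to Taf15 within a library was 9.27 ± 0.944 in KO and 7.83 ± 0.863 in WT (SD, n = 3), with the lowest KO library at 8.50 and the highest WT library at 8.40. This ratio was chosen after the values had been seen and was not tested.

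Among the remaining members, Syncrip, a cytoplasmic relative of hnRNP R, measured 219.2, 191.5 and 214.4 FPM in KO libraries and 223.7, 218.2 and 234.8 FPM in WT libraries. WT 2 lay below KO 1, so that the genotypes overlapped, and the log2 change was -0.11 (limma adjusted p = 1). Hnrnpr measured 143.3, 152.7 and 171.4 FPM in KO libraries and 138.1, 143.9 and 176.8 FPM in WT libraries, a change of -0.05. Hnrnpm, which regulates splicing, was at 222.5 ± 22.1 FPM in KO and 237.1 ± 10.6 FPM in WT (SD, n = 3), a change of -0.07. Of the scaffold-attachment proteins, Hnrnpu, which binds RNA and chromatin, measured 900.2, 968.8 and 967.8 FPM in KO libraries and 887.2, 849.7 and 1044.7 FPM in WT libraries, and its relatives Hnrnpul1 and Hnrnpul2 had changes of -0.03 and -0.01. Rbmx, the X-linked hnRNP G gene, measured 122.5, 141.2 and 132.7 FPM in KO libraries and 109.2, 112.7 and 145.3 FPM in WT libraries, a change of 0.03. Tardbp, which encodes the UG-binding repressor TDP-43, measured 204.4, 243.6 and 241.6 FPM in KO libraries and 186.4, 202.8 and 264.2 FPM in WT libraries, a change of -0.03. Fubp1, which binds single-stranded DNA upstream of Myc and intronic pyrimidine-rich RNA, measured 338.1, 428.7 and 412.5 FPM in KO libraries and 330.0, 340.4 and 439.8 FPM in WT libraries, a change of -0.03. For Rbmx, Tardbp and Fubp1 the low libraries were KO 1, WT 1 and WT 2, those of code 22.

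The 2 codes gave opposite genotype differences for most of the group. Within code 24, the mean of KO 4 and KO 5 minus WT 4 was positive for 0 of 33 genes, with a median log2 difference of -0.13. Within code 22, KO 1 minus the mean of WT 1 and WT 2 was positive for 29 of 33, with a median of 0.12. Of all 14944 genes tested, 4293 were positive in code 24 (median -0.08) and 9931 in code 22 (median 0.12). The sign was the same in both codes for 4 of 33 genes, which were Hnrnpa3, Hnrnph3, Syncrip and Taf15, all lower in KO, and for 28.9% of all genes. The interaction of genotype and code was above 0 for 0 of 33 genes and for 28.4% of all genes, so that most of all genes did not lie above 0 either. Its median was -0.24 for the 33 genes and -0.21 for all genes. Most other gene lists lay on the same side. Below 0 were 40 of 43 other RNA-binding proteins (median -0.23), 6 of 6 markers of CD4 T cells and 7 of 8 myeloid markers (median -0.995). So were all 5 tested activation markers and all 5 tested markers of CD8 T and NK cells. The B cell markers went the other way, with 3 of 5 tested above 0 (median 0.44), as did the 1 erythroid marker tested (0.21). None of the 33 interactions passed, and neither did that of any other gene (limma, smallest adjusted p = 0.678). At an unadjusted p under 0.05 stood 1 of 33, Hnrnpa0, beside 2.47% of all genes.

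These differences rest on single libraries, since code 24 holds 1 WT library and code 22 holds 1 KO library. KO 1 had the highest value of 15 genes and WT 4 of 14, whereas WT 1 had the lowest value of 16 and KO 4, the library with the lowest sum of activation markers, of 12. The part of these markers in the values of the group was not tested. The median deviation of the 33 genes from their own means was 0.09 in KO 1, -0.06 in KO 4 and -0.01 in KO 5, and -0.08 in WT 1, -0.02 in WT 2 and 0.10 in WT 4. The same figure over all genes was 0.04, -0.01 and 0.03 in the KO libraries and -0.12, -0.02 and 0.09 in the WT libraries. Without WT 4 the fit over the other 5 libraries gave a positive change for 29 of 33 genes, with a median of 0.12 beside 0.11 for all genes. Without KO 1 the fit gave 0 of 33, with a median of -0.13 beside -0.07 for all genes. No gene of the 33 passed in either fit (limma, smallest adjusted p = 0.650 and 1). Without WT 1, 9 of 33 changes were positive, with a median of -0.04 beside -0.01 for all genes.

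**Figure D3:**
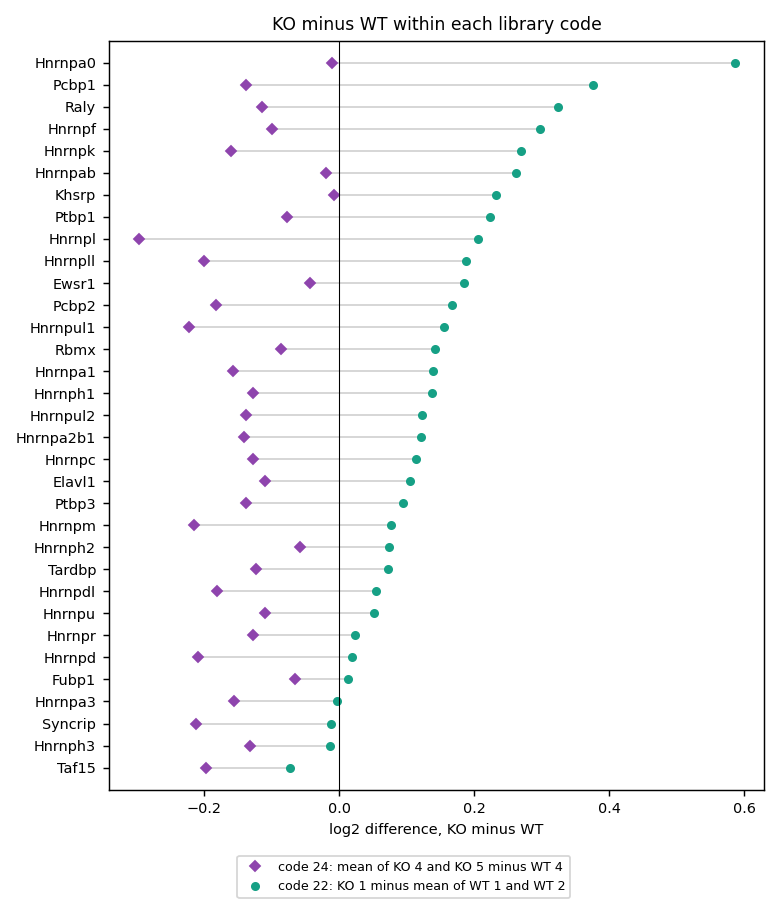
log2 difference, KO minus WT, within library code 24 (diamonds, mean of KO 4 and KO 5 minus WT 4) and within library code 22 (circles, KO 1 minus the mean of WT 1 and WT 2) for each gene. All 33 diamonds lie below 0 and 29 of 33 circles lie above it.

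More genes of the group divided along library code than along genotype. Values of code 24 (KO 4, KO 5 and WT 4) and code 22 (KO 1, WT 1 and WT 2) did not overlap for 11 of 33 genes, 6 of them higher and 5 lower in code 24. Over all genes tested this share was 20.5%, with 14.3% higher and 6.14% lower, and it was 21.5% over the genes at least as abundant as Hnrnph3. The test of code called 0 of 33 genes (limma with genotype as a term, smallest adjusted p = 0.260), beside 0.141% of all genes. Without adjustment, p was under 0.05 for 4 genes that were higher and 2 that were lower in code 24, beside 5.98% and 2.84% of all genes.

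The lower genes were Hnrnpa2b1, Hnrnpa1, Hnrnpa3, Hnrnph1 and Hnrnpab, of which all but Hnrnph1 are A/B hnRNPs. Hnrnpa2b1 averaged 667.9 ± 38.4 FPM in code 24 and 936.1 ± 51.4 FPM in code 22 (SD, n = 3), a log2 change of -0.48 (SE 0.110, limma adjusted p = 0.260). Hnrnpa1 averaged 275.5 ± 20.6 FPM in code 24 and 334.5 ± 20.8 FPM in code 22 (SD, n = 3), a change of -0.28. Hnrnpa3, Hnrnph1 and Hnrnpab had changes of -0.21, -0.20 and -0.18. Hnrnpa0, of the same family, was not among them, at 132.9 ± 0.611 FPM in code 24 and 121.6 ± 31.5 FPM in code 22 (SD, n = 3).

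The higher genes were Hnrnph3, Fubp1, Tardbp, Rbmx, Hnrnpr and Hnrnpu. Hnrnph3 averaged 41.6 ± 2.51 FPM in code 24 and 31.2 ± 0.529 FPM in code 22 (SD, n = 3), a log2 change of 0.43 (SE 0.112, limma adjusted p = 0.342). Fubp1 averaged 427.0 ± 13.7 FPM in code 24 and 336.2 ± 5.46 FPM in code 22 (SD, n = 3), a change of 0.35, and Tardbp 249.8 ± 12.5 FPM in code 24 and 197.9 ± 9.96 FPM in code 22, a change of 0.34. Rbmx, Hnrnpr and Hnrnpu had changes of 0.27, 0.25 and 0.19. The directions of Hnrnpa2b1, Hnrnpa1, Hnrnph3, Fubp1 and Tardbp were kept under total-sum and ERCC scaling. Within a library, where scaling cancels, the Hnrnpa2b1 value was 1.51 to 1.62 times that of Fubp1 in code 24 and 2.60 to 2.93 times in code 22, a pair chosen after the values had been seen. Myeloid markers moved with code too, since all 8 had positive changes, code 24 minus 22 (median log2 change 0.77, none called). The activation marker Cd69 lay at 193.2 to 216.0 FPM in code 24 and 303.2 to 369.4 FPM in code 22. The activation markers as a list did not move one way. Of the 5 tested, 2 had positive and 3 negative changes (median -0.0006, none called), with Il2ra at 0.07 and Myc at 0.02. The part of the myeloid and activation markers in the divisions of the group was not tested.

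**Figure D4:**
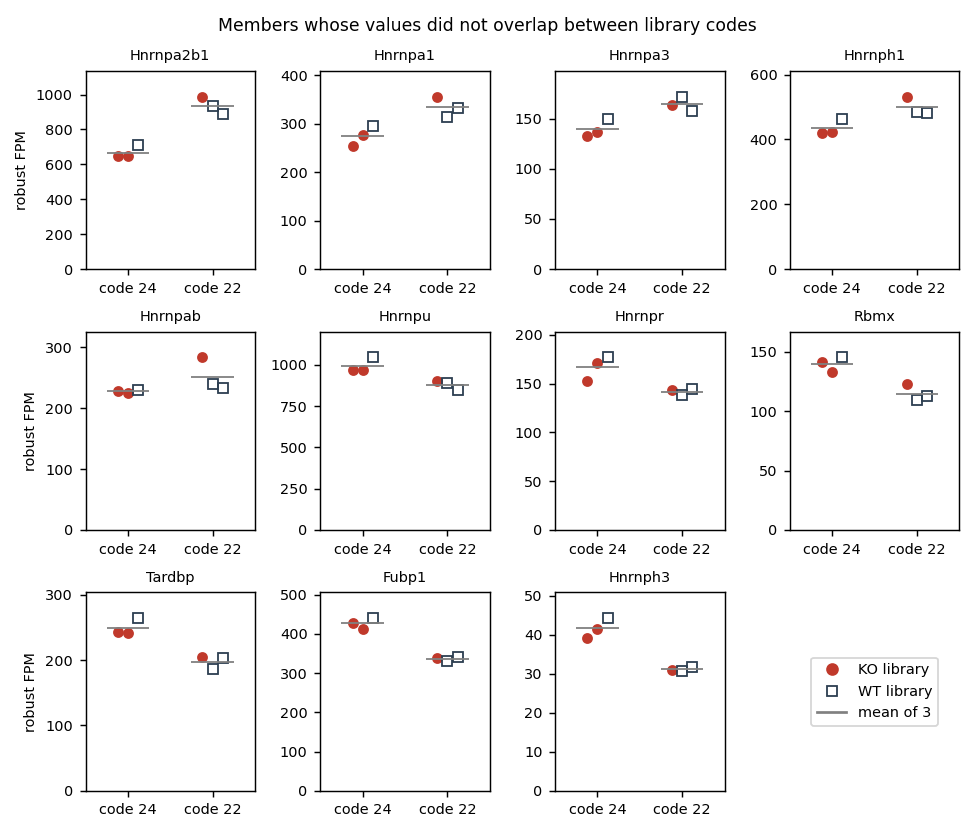
Robust FPM of the 11 genes whose values did not overlap between library code 24 (left in each panel) and library code 22 (right), with filled circles for KO libraries, open squares for WT libraries and grey lines for the mean of 3 libraries. The top panels hold genes that are lower in code 24, such as Hnrnpa2b1 at 667.9 against 936.1 FPM, and the later panels genes that are higher there, such as Fubp1 at 427.0 against 336.2 FPM.

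**Figure D5:**
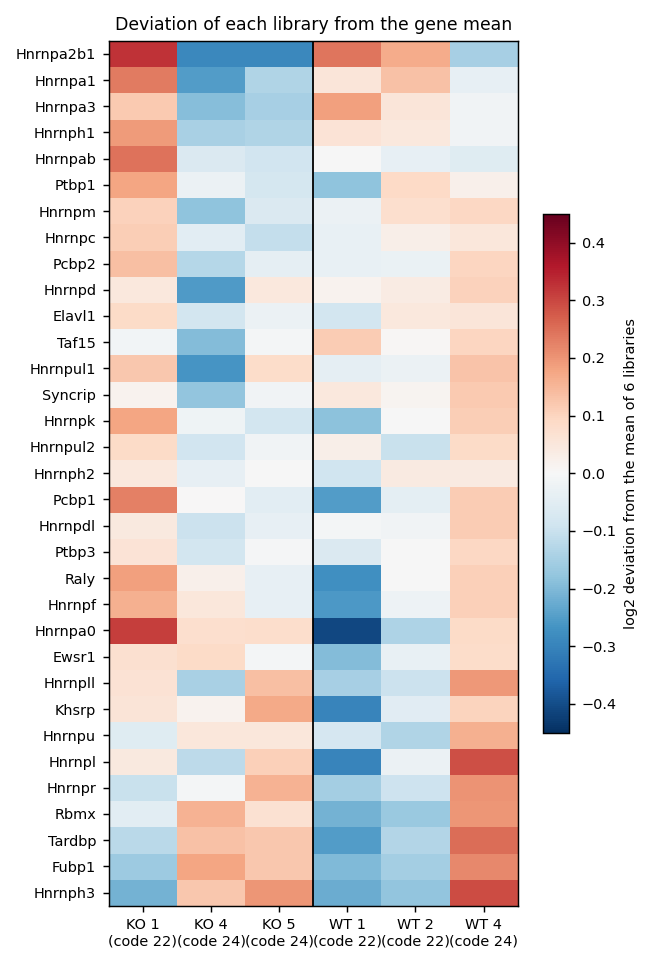
log2 deviation of each library from the mean of its gene over 6 libraries, with KO libraries to the left of WT libraries and genes ordered by the change between library codes. KO 4, KO 5 and WT 4 are blue for the genes at the top and red for those at the bottom, and WT 1 is the lowest library for 16 of 33 genes.

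The promoter windows of the genes with the smallest p in each direction of the library code, Hnrnpa2b1 and Hnrnpa1 (lower in code 24) and Hnrnph3 and Fubp1 (higher in code 24), are shown to set the members that divided against each other side by side. They are RefSeq windows of build GRCm38.p6 from 250 bases before to 50 bases after a gene start, read 5' to 3' on the gene's strand. Capitals mark exact matches on either strand to CCAAT, to the GC box core GGGCGG or to a pair of heat shock units, GAANNTTC.
Hnrnpa2b1 (chr6:51469845-51470144, strand -): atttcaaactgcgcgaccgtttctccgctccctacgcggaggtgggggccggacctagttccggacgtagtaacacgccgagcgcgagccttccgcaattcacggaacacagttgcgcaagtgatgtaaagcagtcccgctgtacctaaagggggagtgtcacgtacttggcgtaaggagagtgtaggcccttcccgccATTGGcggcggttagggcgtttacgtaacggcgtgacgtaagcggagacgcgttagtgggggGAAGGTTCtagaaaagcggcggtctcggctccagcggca
Hnrnpa1 (chr15:103240147-103240446, strand +): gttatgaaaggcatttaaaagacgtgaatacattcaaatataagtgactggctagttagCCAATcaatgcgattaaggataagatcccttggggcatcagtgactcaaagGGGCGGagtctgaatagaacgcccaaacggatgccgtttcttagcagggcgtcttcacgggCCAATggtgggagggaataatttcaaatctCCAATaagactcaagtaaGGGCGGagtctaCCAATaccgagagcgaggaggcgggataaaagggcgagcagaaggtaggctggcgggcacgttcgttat
Hnrnph3 (chr10:63023800-63024099, strand -): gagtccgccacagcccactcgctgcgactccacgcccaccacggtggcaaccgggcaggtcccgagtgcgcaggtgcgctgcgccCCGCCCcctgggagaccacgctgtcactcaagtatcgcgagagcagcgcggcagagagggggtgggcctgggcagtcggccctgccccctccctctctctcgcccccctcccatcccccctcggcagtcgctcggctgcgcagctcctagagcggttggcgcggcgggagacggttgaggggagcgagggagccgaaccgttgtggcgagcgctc
Fubp1 (chr3:152210172-152210471, strand +): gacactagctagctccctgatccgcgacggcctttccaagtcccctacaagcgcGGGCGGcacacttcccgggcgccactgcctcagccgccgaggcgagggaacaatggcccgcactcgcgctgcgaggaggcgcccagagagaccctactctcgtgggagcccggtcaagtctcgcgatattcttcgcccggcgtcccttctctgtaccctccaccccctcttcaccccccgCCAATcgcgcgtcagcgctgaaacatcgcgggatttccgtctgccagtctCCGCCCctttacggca

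Windows were found for all of the 33 genes but Hnrnpll, Hnrnpul2 and Ptbp3. All were compared with 27025 windows, 1 per gene of the RefSeq table, for 6 motifs counted on both strands. CCAAT was held by 18 of 30 windows (60.0%) and by 37.9% of all windows, and GGGCGG by 22 of 30 (73.3%) and by 35.9% of all windows. TATAAA was held by 3 of 30 (10.0%) and by 14.2% of all windows, CCGGAAG (an ETS motif) by 4 of 30 (13.3%) and by 9.12%, and GAANNTTC by 2 of 30 (6.7%) and by 7.95%. TGACGTCA (the cyclic AMP response element) was held by 0 of 30, beside 1.88% of all windows. The windows of the group had a median of 66.0% G and C and 31.5 CpG dinucleotides, against 52.7% and 7.0 for all windows, which include those of non-coding genes. CCAAT was held by all 5 windows of genes lower in code 24 and by 3 of the 6 of genes higher there. In the same order, GGGCGG was held by 4 of 5 and 5 of 6, TATAAA by 1 of 5 and 1 of 6, and GAANNTTC by 1 of 5 and 0 of 6. CCGGAAG and TGACGTCA were held by none of these windows. The splits were not tested. Of the windows shown above, that of Hnrnpa1 held 4 CCAAT matches and that of Hnrnph3 none. Those of Hnrnpa2b1 (lower in code 24) and Fubp1 (higher there) held 1 each, so that they did not differ in CCAAT count. They differed in other motifs, since only that of Fubp1 held GGGCGG and only that of Hnrnpa2b1 held GAANNTTC. The RefSeq start used for Hnrnph3 lies 368 bases from the start annotated by GENCODE. Its window falls wholly inside the gene as annotated there.

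Reads of some members cannot be assigned with certainty. Transcripts of other genes matched a member's longest coding transcript at 95% identity or more over at least 200 bases for 11 of the 33. Hnrnpa3 had 28 such genes, 26 of them annotated as pseudogenes, whose rows summed to 12.2% of the Hnrnpa3 value. Hnrnpa1 had 9, all pseudogenes, at 2.13% of its value, and Hnrnpk had 2, of which the processed pseudogene Gm7964 (99.2% identical over 1378 bases) was listed at 20.4 FPM on average, or 3.29% of the Hnrnpk value. Another annotated gene overlapped 23 of the 33. The longest shared exon stretch on the same strand was that of Hnrnpm and March2, at 1169 bases, and on the opposite strand that of Tardbp and Masp2, at 1817 bases. The strand setting of the counting step was not stated in any source used.

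Other RNA-binding proteins of the nucleus and of messenger ribonucleoproteins, a list of 47 genes, had no called member either. Of the 47, 43 passed the filter, and the neuronal relatives Elavl2, Elavl3, Elavl4 and Ralyl did not, at means under 1 FPM. The median log2 change was 0.004 with 23 positive and 20 negative, and 0 had an unadjusted p under 0.05. The smallest p on the positive side were those of U2af2, which binds the polypyrimidine tract (133.7 ± 19.7 FPM in KO and 109.9 ± 17.7 FPM in WT, SD, n = 3, log2 change 0.23), and Puf60, its relative (155.4 ± 16.9 FPM in KO and 132.6 ± 30.6 FPM in WT, SD, n = 3, log2 change 0.22). On the negative side they were those of Tial1, which binds U-rich RNA at 5' splice sites (51.2 ± 6.62 FPM in KO and 56.1 ± 5.68 FPM in WT, SD, n = 3, log2 change -0.20), and Ptbp2, the relative of Ptbp1 best known from neurons (80.3 ± 11.8 FPM in KO and 90.6 ± 5.59 FPM in WT, SD, n = 3, log2 change -0.19). The values of these 4 genes overlapped between genotypes. Of the 43, Sltm alone, named after its values were seen, did not overlap and was lower in KO. Over all genes tested 2.88% did not overlap, and 1.79% with KO lower. Sltm measured 207.0, 189.3 and 196.8 FPM in KO libraries and 219.2, 215.0 and 219.2 FPM in WT libraries. Its log2 change of -0.13 did not pass (limma adjusted p = 1). At 9.31 FPM per kb, the level of Ptbp2 stood below those of Ptbp3 (74.7) and Ptbp1 (58.9).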

How the data were processed

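Total RNA of splenic and lymph node CD4 T cells was depleted of ribosomal RNA and made into stranded TruSeq libraries, per the labels' protocols. Per the submitters' processing notes, the build was GRCm38.p3 and the tools were DESeq, DESeq2, featureCounts and STAR, whose roles and versions they do not give. The deposited values are robust FPM, scaled by the authors and treated here as RPM. They are rounded to 1 decimal, so that whole reads were not recovered and depth is unknown. The columns used carry the word rest in their headers. Another 6 columns, with act in its place, matched no sample and were not used. Of 54624 rows, 92 were ERCC spike-ins and were left out of the tests.

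Genes with a mean of at least 1 FPM over the 6 libraries were kept (14944). On log2(FPM + 0.5), a scale that understates changes of low genes, limma 3.58.1 (R 4.3.3) fitted library code and genotype, with a mean-variance trend and two-sided moderated tests. A fit with their product tested the interaction. Benjamini-Hochberg adjustment ran over all genes tested, with a threshold of 0.05. The script was tested on simulated data. The design text calls samples of a group biological replicates. The p-values set a change against the spread between them, moderated by limma towards a trend over all genes tested. The members, lists and motifs were chosen with earlier results of these data known. Values per library are given for 21 members: the highest and lowest per kb, those of smallest p in each direction of both terms and in the interaction, and those without overlap between genotypes. Hnrnpu was added after its values were seen, for its lack of overlap between codes. Exon lengths, overlaps and coordinates come from GENCODE M21 (GRCm38), near-identical transcripts from BLAST 2.17.0, and promoters from RefSeq (GRCm38.p6). Python 3.11.15 with matplotlib 3.10.9 made the figures. Alternatives changed the pseudocount, filter, scaling, trend, threshold, model terms and libraries.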

Additional observations from a re-analysis of the deposited data

How the results depend on the processing

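No member was called between genotypes, between library codes or in the interaction under any alternative run, with pseudocounts of 0.1 and 1, filters of none and a mean of 5, total-sum and ERCC scaling, no trend, a threshold of 0.10, dropped or added terms, and each library left out where that was run. For KO minus WT, the count over all genes stayed at 0 except with the replicate block (5). The numbers shared by KO 1 and WT 1 and by KO 4 and WT 4 are only 2 pairs, whose pairing the labels do not state. With this block the member median was -0.02 and 4 of 33 changes turned sign. The median of -0.01 moved to -0.23 with ERCC scaling, and to between -0.13 (without KO 1) and 0.12 (without WT 4) with a library left out. The median of all genes in the same fits was -0.20 with ERCC scaling, -0.07 without KO 1 and 0.11 without WT 4. Prmt5 stayed lower, at -0.94 to -0.62 with a library left out.

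Of the 33 members, 11 changed direction with total-sum scaling, 11 with ERCC scaling, 8 without the code term and 4 with the replicate block. Those among the 21 members given per library are listed here, none passing the test. With total-sum scaling Hnrnpa1 was at 0.0226, Hnrnpa2b1 at 0.0218, Hnrnpll at 0.026, Tardbp at 0.0064, Elavl1 at 0.029 and Fubp1 at 0.0058. With ERCC scaling Hnrnpab was at -0.0977, Hnrnpf at -0.12, Hnrnph1 at -0.21, Hnrnpk at -0.16, Pcbp1 at -0.0985, Raly at -0.11, Rbmx at -0.19 and Khsrp at -0.11. Without the code term Hnrnph1 was at -0.0618, Hnrnph3 at 0.0712, Hnrnpll at 0.0353, Hnrnpr at 0.0313, Tardbp at 0.0893 and Fubp1 at 0.0916. With the replicate block Hnrnph1 was at -0.0008, Tardbp at 0.0079 and Elavl1 at 0.016. With a library left out, the ranges were -0.0108 to 0.59 for Hnrnpa0, -0.16 to 0.14 for Hnrnpa1, -0.14 to 0.12 for Hnrnpa2b1, -0.0192 to 0.26 for Hnrnpab, -0.21 to 0.0193 for Hnrnpd, -0.0995 to 0.30 for Hnrnpf, -0.13 to 0.14 for Hnrnph1, -0.16 to 0.27 for Hnrnpk, -0.20 to 0.19 for Hnrnpll, -0.13 to 0.0236 for Hnrnpr, -0.14 to 0.38 for Pcbp1, -0.11 to 0.32 for Raly, -0.12 to 0.072 for Tardbp, -0.0858 to 0.14 for Rbmx, -0.0081 to 0.23 for Khsrp, -0.11 to 0.10 for Elavl1 and -0.0646 to 0.0126 for Fubp1. Hnrnpa3, Hnrnph3, Syncrip and Taf15 stayed negative in each of these.

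For library code, 21 genes of all tested were called, and 54 with a mean of at least 5, 11 with ERCC scaling, 0 without a trend, 42 at a threshold of 0.10 and 87 without the genotype term. With a library left out there were 0 (without KO 1 or WT 4) to 110 (without WT 1), and the member median ran from -0.14 to 0.13. ERCC scaling gave 6 genes in the interaction. The causes were not tested. With depth unknown, all intervals rest on the spread between libraries, moderated by limma towards a trend over all genes tested. An interval is therefore not the spread of its own gene alone.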

Other observations

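Genes that overlap members on the genome were read beside them, as values only. Cox20, which overlaps Hnrnpu on the opposite strand by 804 exon bases, averaged 22.1 FPM over the 6 libraries, and Rufy2, which overlaps Hnrnph3 by 115 bases, averaged 68.9 FPM. March2, which overlaps Hnrnpm on the same strand, averaged 56.5 FPM. Phykpl, opposite Hnrnpab, averaged 14.9 FPM, and Masp2, opposite Tardbp, averaged 0.733 FPM.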
